A study of Mus musculus with 3 samples.

Results

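The regions described here are 285 promoter regions of mouse leukemic B-cell lines that carried an ATAC-seq peak in both lines with wildtype CDK6 and in neither line with kinase inactive CDK6. They were selected on the presence of peaks. Overlapping peaks of 4 peak lists were merged (1 bp minimum), and a merged region was kept when each wildtype list and no K43M list had a peak in it and it overlapped the window from 2000 bp before to 200 bp after an annotated transcription start. Chromosomes 12, 13 and 18 and the sex chromosomes were left out. The 16 autosomes used held 14603 promoter regions, so the members make up 1.95% of them. Peak presence chose the members, and the counts of peaks per genotype are therefore a description and no test was run on them.

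The study asked how the kinase activity of CDK6, a cyclin-dependent kinase of the G1 phase that also acts on chromatin, bears on transcription in BCR::ABL1+ leukemia. Bone marrow cells of C57BL/6 mice homozygous for wildtype Cdk6 (Cdk6+/+, called WT) or for Cdk6 with the inactivating K43M exchange (Cdk6 KM/KM, called K43M) had been transduced with a retrovirus that carries BCR-ABLp185 and GFP, and all 4 lines therefore express the same oncogene. Each genotype was represented by 2 lines with 1 library each, named here WT unnumbered, WT replicate 2, K43M replicate 1 and K43M replicate 2. WT unnumbered is the wildtype line that had been deposited before and carries no sample label of its own. A genotype thus rests on 2 transformed lines, and a difference between lines cannot be told apart from a difference between genotypes.

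ATAC-seq cuts accessible DNA with a transposase, and a peak marks a stretch where such cuts pile up. Most promoters of housekeeping genes lie in CpG islands, stretches rich in CG dinucleotides that are accessible in nearly all cell types. Promoters without a CpG island more often belong to genes of single tissues or stages, and upstream regions beyond the core promoter behave more like enhancers. A peak list says only whether a site passed the threshold of the peak caller, so a region without a K43M peak may still hold K43M reads below that threshold.

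The lists held between 33038 and 39038 peaks, with the longest list in K43M replicate 1 and the shortest in WT unnumbered. Median summit pileups, the number of overlapping extended reads at the peak's top, lay between 22 and 26. The Cdk6 promoter, which the exchanged codon does not alter, had peaks in all 4 lists with best folds between 3.64 and 3.92. Of 12 B-lineage markers, 8 had a promoter peak in all 4 lists, among them Pax5 and Ebf1, and Dntt had none. All 6 markers of erythroid cells and megakaryocytes and all 8 myeloid markers lacked a promoter peak in at least 1 list. Of 8 markers of T and NK cells, Lck and Zap70 had a promoter peak in all 4 lists and the other 6 had none.

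Height here means fold enrichment, the summit signal of a peak divided by the local background of its own library. The regions with the best rank in both WT lists served zinc finger genes, an olfactory receptor pseudogene, a cytochrome P450 gene and noncoding transcripts. Reference sequences of some of them are given because those of Zfp345, Gm14124 and Gm14403 on chromosome 2 share a stretch of sequence. Each window covers 201 bp of GRCm38 (mm10) centred on the summit and is printed 5′ to 3′ on the strand of the nearest gene, with motif words found by the search in capitals. Capitals mark the NFY word in the printed zinc finger windows and the RUNX word or its reverse complement in Olfr647-ps1 and Cyp2j9. The window of Zfp972, also among the best-ranked regions, held none of the words searched and is not printed. The Gm14139, Zfp821 and Zkscan16 regions lacked the NFY word too. The windows lie at chr2:150485070-150485270 for Zfp345, chr2:150257368-150257568 for Gm14124, chr2:177498077-177498277 for Gm14403, chr5:104859992-104860192 for Zfp951, chr7:104169915-104170115 for Olfr647-ps1, chr4:96591421-96591621 for Cyp2j9 and chr19:53825109-53825309 for Gm16299. The windows of Gm14124 and Gm14403 are on the plus strand and the other windows on the minus strand.
Zfp345: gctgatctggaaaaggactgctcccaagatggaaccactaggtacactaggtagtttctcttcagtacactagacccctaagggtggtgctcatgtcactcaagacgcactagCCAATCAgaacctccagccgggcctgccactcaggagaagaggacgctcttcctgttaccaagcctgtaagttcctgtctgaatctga
Gm14124: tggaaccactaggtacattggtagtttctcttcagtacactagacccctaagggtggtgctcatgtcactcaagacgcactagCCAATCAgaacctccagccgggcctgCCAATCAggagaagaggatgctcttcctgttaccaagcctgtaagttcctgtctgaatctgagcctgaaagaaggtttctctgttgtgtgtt
Gm14403: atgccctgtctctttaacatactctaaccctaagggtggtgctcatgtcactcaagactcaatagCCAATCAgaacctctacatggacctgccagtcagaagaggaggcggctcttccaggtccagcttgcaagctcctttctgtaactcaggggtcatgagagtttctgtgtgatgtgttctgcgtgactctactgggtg
Zfp951: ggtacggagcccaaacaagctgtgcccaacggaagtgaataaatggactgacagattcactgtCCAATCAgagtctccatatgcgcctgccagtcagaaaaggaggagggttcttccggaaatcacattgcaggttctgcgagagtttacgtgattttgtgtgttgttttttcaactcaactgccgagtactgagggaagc
Olfr647-ps1: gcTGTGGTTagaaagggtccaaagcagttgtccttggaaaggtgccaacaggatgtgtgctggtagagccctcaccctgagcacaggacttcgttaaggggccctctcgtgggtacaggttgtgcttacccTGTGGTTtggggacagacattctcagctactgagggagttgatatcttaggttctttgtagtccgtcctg
Cyp2j9: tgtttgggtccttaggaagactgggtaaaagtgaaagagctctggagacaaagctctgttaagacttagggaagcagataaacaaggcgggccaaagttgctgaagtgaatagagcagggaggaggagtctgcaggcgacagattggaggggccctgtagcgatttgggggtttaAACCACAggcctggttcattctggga
Gm16299: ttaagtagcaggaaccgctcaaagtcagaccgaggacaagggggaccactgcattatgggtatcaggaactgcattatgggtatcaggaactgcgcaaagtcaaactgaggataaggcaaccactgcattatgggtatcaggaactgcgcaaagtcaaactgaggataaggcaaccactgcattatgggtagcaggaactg

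Zinc finger promoters led the list. C2H2 zinc finger proteins bind DNA through tandem fingers, and many of the large mouse family repress transposable elements through a KRAB domain. Zfp345 on chromosome 2 had the highest-ranked region (150484780 to 150485678), with a fold of 12.9 in WT unnumbered and 14.4 in WT replicate 2 and a summit 79 bp upstream of the start. The nearest K43M peak lay 32872 bp away. Gm14124 had folds of 10.4 and 11.9, and its summit lay 49 bp upstream. Gm14139, in the same cluster, was lower at 7.53 and 6.56. These 3 promoters lie within 304273 bp of each other and were at least 6-fold over background in both WT libraries. The stretch held 6 promoter regions, of which 2 had a peak in all 4 lists. K43M replicate 1 had 6 peaks in it and K43M replicate 2 had 4.

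The second zinc finger cluster of chromosome 2 held Gm14403 with folds of 12.1 and 10.2, 38 bp upstream of its start. Zfp972 in the same cluster reached 11.1 and 10.8 at 253 bp upstream. On chromosome 5 the Zfp951 region had folds of 12.6 and 11 with the summit 22 bp upstream of the start, and a K43M peak lay 135 bp from the edge of this region. The 2 remaining zinc finger genes by symbol were lower. Zkscan16 stood at 3.94 and 4.27 and Zfp821 at 5.04 and 4.22, and both had another promoter peak in all 4 lists.

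The predicted genes Gm14403, Gm14124 and Gm14139 carry no zinc finger name, so fingers were counted in the transcripts. Gm14403 had 9 copies of the C2H2 pattern in one reading frame, Gm14124 had 19 and Gm14139 had 13, against 14 in Zfp345 and 10 in Zfp951. Of 427 protein-coding genes with at least 5 fingers, 276 had a promoter peak in all 4 lists and 6 (1.41%, 95% Wilson interval 0.646 to 3.03) in the WT lists only. The share with a promoter peak in the WT lists only was 0.473% over all 18813 protein-coding genes. In the opposite direction 11 of the 427 (2.58%) had promoter peaks in the K43M lists only, against 2.03% over all protein-coding genes. Counted by regions, 6 of the 343 promoter regions nearest to such a gene were members (1.75%, 0.804 to 3.76), close to the 1.95% of all promoter regions. For genes with a zinc finger in their RefSeq name, 6 of 526 regions were members (1.14%) and 4 of 576 genes (0.694%) had promoter peaks in the WT lists only. The zinc finger genes Zfp345 and Zfp951 thus held ranks 1 and 2 by the weaker WT peak, while Zkscan16 had rank 131. The share of members among zinc finger genes depended on how it was counted. The 6 genes with at least 5 fingers and promoter peaks in the WT lists only are Zfp345, Zfp951, Gm14403, Gm14124, Gm14139 and Gm21994. The window of Gm21994 holds the same region as that of Gm14124. The count is small and 3 of the genes have nearly the same promoter sequence, so the genes are not independent of each other.

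Windows of 501 bp around the summits of Zfp345, Gm14124 and Gm14139 were between 96.0% and 97.0% identical in local alignments. Gm14403 shared between 73.3% and 74.5% with each of them. One word of 31 bp occurred in all 4 windows, and its exact copies were looked up in the reference after the likeness had been noticed. The word occurred 45 times, all on chromosome 2, and 35 copies lay within 1000 bp of a transcription start. A peak of both WT lists and no K43M list covered 4 copies, a peak of all 4 lists covered 10, and no copy had a peak in the K43M lists only. Another 28 copies had no peak in any list. Genes with a copy and a peak in all 4 lists included Zfp931, Zfp970 and Zfp971. Zfp972 did not reach 5 counted fingers and was left out of these comparisons. No exact copy of the word was nearest to Zfp972, and in a separate alignment its window was 72.6% identical to that of Zfp345. The authors removed reads that map to several places, so nearly identical copies can lose reads, and how many of the copies without a peak owe this to the removal was not tested. The plot of the copies along the chromosome shows the WT-only copies of Gm14139, Gm14124 and Zfp345 at the start of the row. The WT-only copy at Gm14403 lies between a copy at Zfp970 with peaks in every list and a copy nearest to Gm14406 without a peak.

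**Figure D1:**
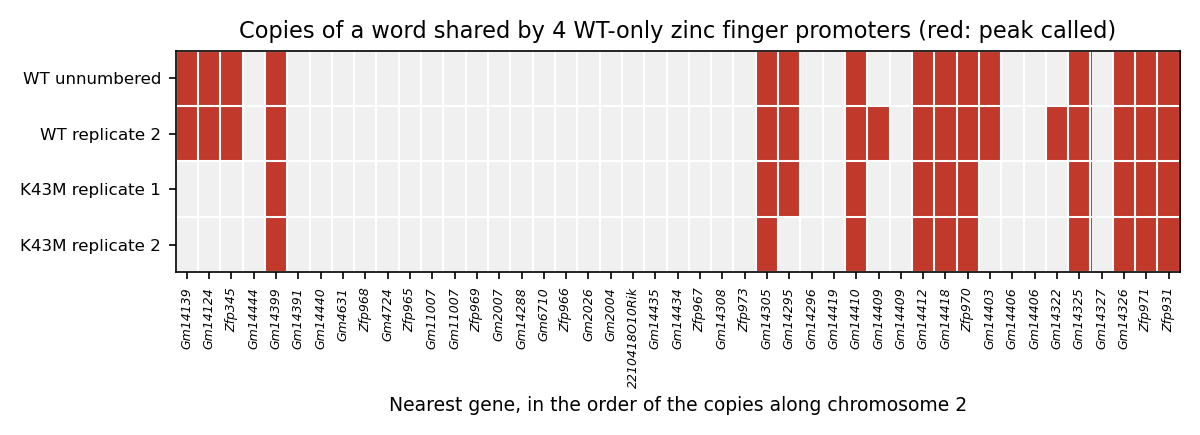
Peaks over the 45 exact copies of the 31 bp word shared by the promoter windows of Zfp345, Gm14124, Gm14139 and Gm14403. Columns are copies in their order along chromosome 2, named by the nearest gene and not drawn to distance; rows are the 4 libraries, and red marks a called peak over the copy. 4 copies are red in both WT rows and in no K43M row, and 10 are red in all rows.

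Other regions of high rank served genes of unlike function. Olfr647-ps1, an olfactory receptor pseudogene, had folds of 10.3 and 9.70, and its summit lay 1673 bp upstream of the start between genes. Its window holds the RUNX word 2 times. Cyp2j9, a cytochrome P450 of the fatty acid oxidising subfamily 2J, had 9.35 and 10.8 at 57 bp downstream of its start, and the nearest K43M peak was 104655 bp away. Tnni3k, a kinase named for its binding to cardiac troponin I, stood at 12.2 and 9.26. Cfi, the protease factor I of the complement system, had 6.87 and 6.81. Both Tnni3k and Cfi had their summit away from the start, 1412 bp upstream and 408 bp downstream respectively.

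Uaca, which encodes a coiled-coil and ankyrin repeat protein, had folds of 10.2 and 8.63 at 95 bp upstream of the start. The long noncoding 1700036A12Rik on the same stretch of chromosome 9 had 10.5 and 8.90, and neither gene had a K43M promoter peak. Zbbx stood at 11.2 and 9.69. Pak1, a kinase that acts downstream of Rac and Cdc42, differed from these genes because it had another promoter peak in all 4 lists, and the member, at 7.87 and 6.54, lay 1436 bp upstream of the nearest start. The antisense transcripts Gm44206 (13 and 11.7), Gm16299 (10.5 and 9.94) and Gm38155 (8.72 and 7.88) were as high as the protein-coding genes. The Gm16299 window is a tandem repeat, and shifting it by 54 bp against itself left 63.9% of the bases identical, against at most 38.5% at the best shift in the other 9 windows of the 10 best-ranked regions. The other noncoding starts among the first 25 were Gm45746, Gm26692, Gm33056, Gm43180, Gm26744, 4833404L02Rik and Gm16386, with folds between 6.79 and 12.2 in WT unnumbered and between 7.24 and 9.71 in WT replicate 2.

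Below these, protein-coding genes without any K43M promoter peak included Sntb1 (6.89 and 6.71), which encodes a syntrophin of the dystrophin complex, Ahcyl2 (10.9 and 8.47), a relative of adenosylhomocysteinase, and Rpp25 (8.50 and 7.79), a subunit of ribonuclease P. Sbf2 stood at 6.12 and 7.45, Ccdc162 at 7.94 and 8.98 and 5730522E02Rik at 8.84 and 7.91. Lyz2, the lysozyme of macrophages and neutrophils, had 7.5 and 7.09 at 10 bp from its start. Of the 8 myeloid markers examined, Lyz2 was the only one with promoter peaks in the WT lists alone, 6 had no promoter peak in any list, namely Csf1r, Cebpa, Mpo, Elane, Itgam and Csf3r, and Cebpe had peaks in all lists but K43M replicate 2. Aes, a corepressor of the Groucho family, was represented by 2 regions, the higher of which had 5.91 and 5.75.

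Arpp21, which encodes a cAMP-regulated phosphoprotein and RNA-binding protein, had 3 members, more than any other gene. The region 2 bp from a start had folds of 5.76 and 5.71, the region 1174 bp upstream 5.76 and 6.50, and the region 615 bp upstream of another start 5.59 and 5.65. Another member, at 2310075C17Rik inside the gene, had 6.91 and 5.70. Over 18626 bp the WT lists had 7 peaks each and the K43M lists 0 each, and the nearest K43M peak to any of these members was 298213 bp away. The stretch runs from the first to the last of these members, which hold no K43M peak by the rule.

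**Figure D2:**
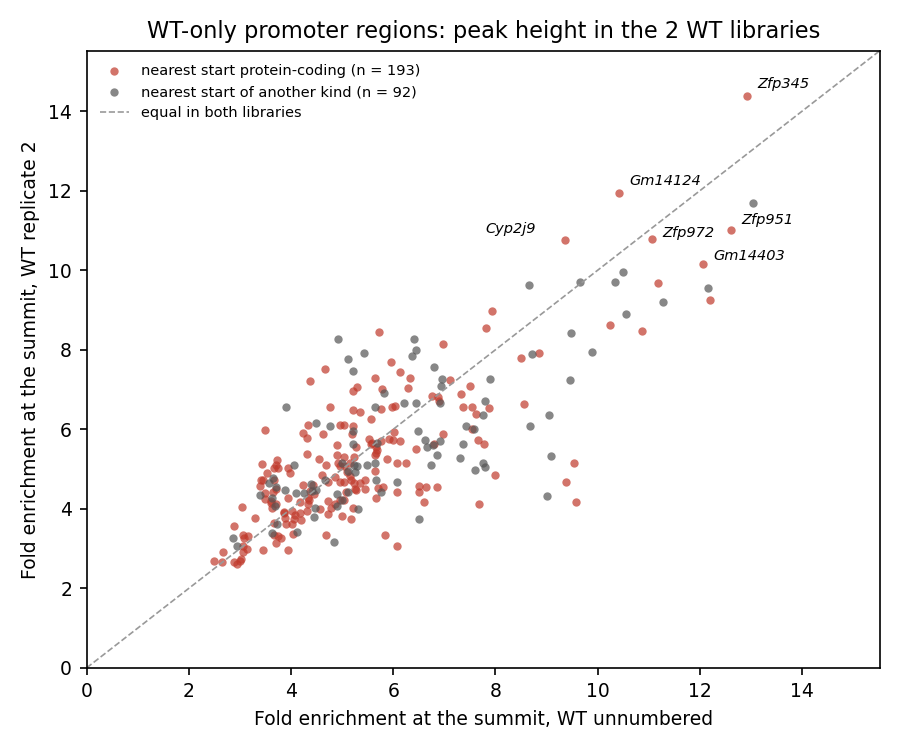
Fold enrichment of the 285 WT-only promoter regions in WT unnumbered (x axis) and WT replicate 2 (y axis), each point 1 region, red for a protein-coding nearest start and grey for another kind; the dashed line marks equal folds. Most points lie between 3 and 8 in both libraries, and a few zinc finger, Cyp2j9 and noncoding regions reach 9 to 14.

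Most members were weaker than the best-ranked regions. The median fold was 5.20 in WT unnumbered and 5.09 in WT replicate 2, against 9.45 in both for promoter regions with a peak in all 4 lists. The weaker of both WT peaks stood at a median percentile of 20.1 within its list, by the −log10 q of the peak, and for regions of all lists at 76.2. In both lists, 7 members stood at the 75th percentile or above and 35 at the 50th or above, and 78 members were below the 10th percentile in at least 1 list. The regions were also narrow, with a median of 388 bp against 967 bp in regions of all lists. K43M-only regions were similarly low and narrow. Their median folds were 5.76 in K43M replicate 1 and 5.59 in K43M replicate 2, and their median width was 437 bp. The weaker of their K43M peaks stood at a median percentile of 22.6. The WT summits lay within 50 bp of each other in 62.1% of the members. Regions with the lowest −log10 q were those of Ggta1 (2.95 and 2.61), Cnot8 (2.66 and 2.91) and Uck2 (6.08 and 3.05).

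With −log10 q of at least 3 required in every list, 281 regions met the rule, of which 7 were new, and 11 of the 285 members were lost. Another 434 promoter regions had a peak in both WT lists and in exactly 1 K43M list. Those nearest to membership had K43M −log10 q of 2.39 at Ddn and 2.46 at Atp5g3, both in K43M replicate 2, and 2.47 at Gm13470 in K43M replicate 1. Inside the members, 11 regions had a K43M peak within 100 bp and 80 within 1000 bp, and the median distance to the nearest K43M peak was 4474 bp. Leaving out 1 library drops a condition of the rule, so the number of members could not fall. It rose to 716 without WT unnumbered, 728 without WT replicate 2, 634 without K43M replicate 1 and 394 without K43M replicate 2. In the opposite direction 853 promoter regions (5.84%) had a peak in both K43M lists and in neither WT list. With all lists cut to the length of the shortest by −log10 q, these counts became 364 WT-only and 670 K43M-only regions.

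The gene types of the members differed from those of other promoter regions. The nearest start belonged to a protein-coding gene in 193 members (67.7%, 95% Wilson interval 62.1 to 72.9), against 88.2% of the regions in all lists, 78.1% of the K43M-only regions and 83.5% of all promoter regions. Long noncoding genes, mostly lincRNA and antisense transcripts, served 51 members (17.9%, 13.9 to 22.8), against 7.82% in all lists and 11.5% among K43M-only regions. Pseudogenes served 17 (5.96%) and small RNA genes 8 (2.81%), while 15 (5.26%) lay at transcripts that GENCODE classes as to be experimentally checked. Read the other way, 1.58% of the promoter regions of protein-coding genes were members and 3.56% of those of long noncoding genes. These intervals cover counting error over regions only, since regions are not replicates of a genotype.

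**Figure D3:**
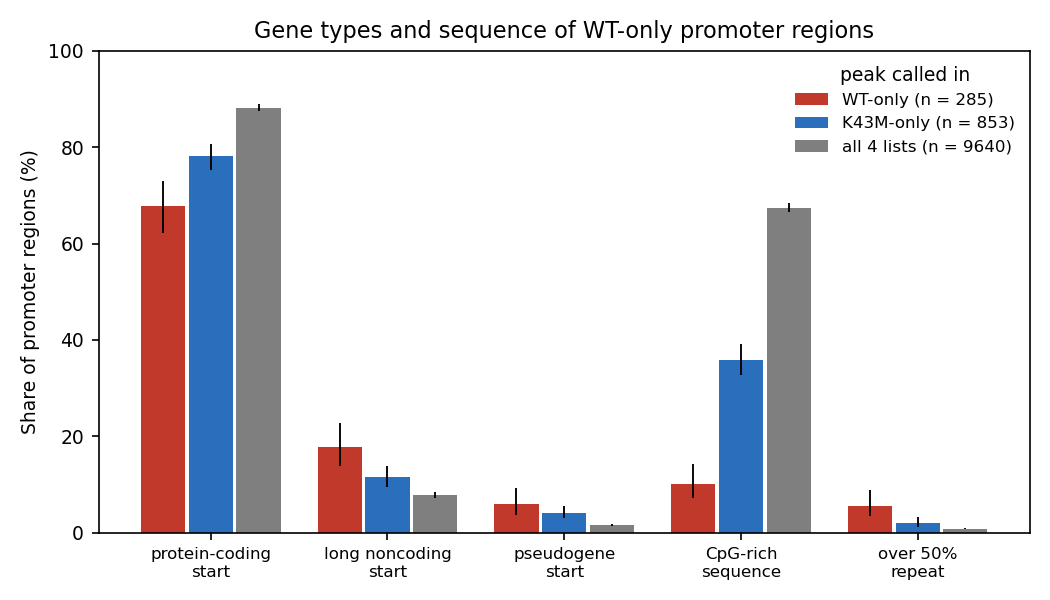
Share of promoter regions (%) whose nearest start is protein-coding, long noncoding or a pseudogene, whose sequence is CpG-rich, or with over 50% repeat-masked bases, for WT-only, K43M-only and all-list promoter regions. Bars start at 0 and error bars are 95% Wilson intervals; CpG-rich sequence stands at 10.2%, 35.9% and 67.4%.

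CpG-rich sequence, meaning over 50% G and C with an observed over expected CpG ratio above 0.6 within 500 bp of the summit, was found in 29 members (10.2%, 7.18 to 14.2). It was found in 67.4% of the regions in all lists, 35.9% of the K43M-only regions and 0.669% of the 1494 WT-only regions outside promoters. The same held among regions with a summit within 200 bp of the start, where 20.5% of 112 members were CpG-rich against 75.8% of regions in all lists and 50.2% of K43M-only regions. The median CpG ratio was 0.26 in the members, 0.44 in K43M-only regions and 0.72 in regions of all lists. Repeats covered more than 50% of the bases within 100 bp of the summit in 5.61% of members and 0.861% of regions in all lists. This share was 1.99% in K43M-only regions, 2.18% in all promoter regions and 6.36% in WT-only regions outside promoters. The zinc finger windows printed above also lacked CpG-rich sequence, whereas the Zkscan16 region had it.

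Summits of the members were most frequent at the start, but less so than in the other classes. In 112 members (39.3%) the summit lay within 200 bp of the nearest start, against 80.3% in all lists and 53.7% in the K43M-only regions. It lay over 1000 bp upstream in 88 members (30.9%, 25.8 to 36.5), against 6.10% and 17.6%. By annotation, 39.3% of the member summits were in introns, 38.6% between genes, 9.12% in UTRs, 8.77% in noncoding exons and 4.21% in coding exons.

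**Figure D4:**
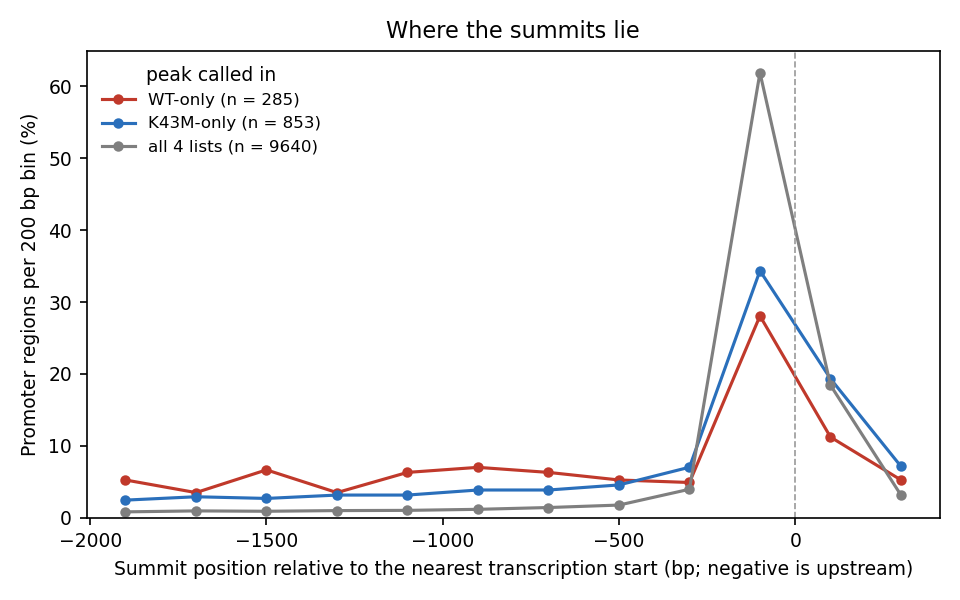
Position of the summit relative to the nearest transcription start (x axis, bp, negative upstream) as the percentage of regions per 200 bp bin (y axis) for WT-only, K43M-only and all-list promoter regions. The all-list curve is concentrated next to the start, and the WT-only curve is lower there and higher along the upstream window.

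The nearest gene of many members had a K43M peak elsewhere in its promoter windows, at the same start or at another one. This was so in both K43M lists for 118 members (41.4%, 35.8 to 47.2), while 156 (54.7%) had none in either. The first share was 24.9% when members with a K43M peak within 1000 bp were left out. Conversely, the nearest gene of 32.9% of the K43M-only regions (29.9 to 36.2) had a promoter peak in both WT lists. Position of the members went along with whether the gene had a K43M promoter peak, in part through the rule itself. A member at the start leaves no K43M peak there by the rule, while a member farther upstream leaves the start free for such a peak. How much of the split this accounts for was not tested. Of 83 protein-coding members within 200 bp of a start, 54 belonged to genes without a K43M promoter peak and 27 to genes with promoter peaks in all 4 lists. Of 110 farther away, 32 belonged to genes without a K43M promoter peak and 72 to genes with promoter peaks in all 4 lists. Among 92 members at starts of other kinds, 70 belonged to genes without a K43M promoter peak. In all, 80 protein-coding genes with a member had no K43M promoter peak.

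Genes of the respiratory chain, which the study followed, were nearly all accessible in both genotypes. Of 84 electron transport chain genes, 77 (91.7%) had a promoter peak in all 4 lists, and 73 of 73 genes of the mitochondrial ribosome did. Over all 18813 protein-coding genes this share was 48.5%. One respiratory gene, Cox6a2, a muscle isoform of a cytochrome c oxidase subunit, had a member. This is 1.19% of the list, against 0.983% of all protein-coding genes nearest to a member. The member had folds of 7.78 and 5.62 and a summit 2014 bp upstream of the start within an intron of the annotation. Atp5g3, which encodes a subunit of ATP synthase, missed membership because of 1 K43M peak with a fold of 3.22. None of 53 cell cycle genes and none of 13 histone genes had a member. At the 0.983% of all protein-coding genes, these lists are too short to show a lack of members.

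Regulators of small GTPases, which switch cell shape and adhesion signals, had members nearest to 8 of 176 genes (4.55%), against 0.983% of all 18813 protein-coding genes. Dock5 alone among them had promoter peaks in the WT lists only, through 2 regions with folds of 5.88 and 5.24 and of 7.99 and 4.84. Dock2, Arhgap18, Arhgap23, Arhgap27, Ralgds, Rap1gap and Rassf5 had another promoter peak in all 4 lists, and their members had folds between 3.49 and 7.54 in WT unnumbered and between 3.33 and 6.0 in WT replicate 2. At the level of genes, 0.568% of the list had promoter peaks in the WT lists only, against 0.473% of all protein-coding genes, and 4.55% in the K43M lists only, against 2.03%.

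The remaining lists had few members, to be read against the 0.983% of all protein-coding genes that were nearest to a member. Chemosensory receptors supplied 2 members among 1420 genes, Olfr553 at 7.37 and 6.56 and Olfr67 at 5.64 and 4.95, and only 4 genes of this list had a promoter peak in all 4 lists. Immunoglobulin and T-cell receptor segments had 1 member of 432, Igkv6-17 at 7.37 and 5.62, 71 bp upstream of its start. Among ion channel genes Kcnip3 (5.08 and 4.41) and Kcnn4 (3.71 and 4.12) had promoter peaks in the WT lists only, 2 of 193 genes (1.04%, against 0.473% of all protein-coding genes), while 15 genes of that list (7.77%, against 2.03%) had them in the K43M lists only. Gpr35, a G protein-coupled receptor, had 5.71 and 8.43, 1 member among 112 genes. Of 318 Slc carriers, Slc35d3 (6.64 and 4.55) and Slc6a6, the taurine transporter (3.06 and 3.05), had a member, and of 145 cytokine and receptor genes Tnfsf9 (3.64 and 4.02), the ligand of 4-1BB. Of 131 transcription factor genes, Hoxb7 (5.45 and 4.73) and Foxp1 (3.86 and 3.92), a factor needed in early B-cell development, had a member, and Foxp1 had another promoter peak in all 4 lists. Metabolic enzyme families gave Cyp4f16 (6.03 and 6.58) beside Cyp2j9 among 143 genes. Small RNA host Mir22hg had a member at 3.57 and 4.65, and no gene among 62 serpins, cathepsins and kallikreins was nearest to a member, although Serpinb12 had promoter peaks in the WT lists only. Proteases outside this list, such as Cfi and Capn1 (6.12 and 5.71), were nearest to members.

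Immune genes were noticed among the members only after their values had been seen, and are given as a description. Cgas, the DNA sensor, had folds of 3.99 and 4.89 at 5 bp from its start, Mx1, an interferon-induced antiviral GTPase, 4.96 and 4.69, and Tap2, the peptide transporter of antigen presentation, 5.03 and 5.08. Ripk3, a kinase of necroptosis, stood at 9.54 and 5.15. These 4 genes had no K43M promoter peak. The antiviral response genes Usp18 (3.88 and 3.76), Uba7 (3.80 and 3.26), Apobec3 (3.94 and 2.97) and Trim26 (4.45 and 4.36) had another promoter peak in all 4 lists and a K43M peak within 155 bp of the member. The sialic acid receptor genes Cd33 (5.20 and 6.48) and Siglech (5.20 and 6.96) lacked K43M promoter peaks.

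A stretch of 870023 bp on chromosome 6 that holds genes of C-type lectin-like receptors had 6 members among its 27 promoter regions. It was picked as a run of at least 3 members with gaps of at most 500000 bp and bounded by its first and last member. Its share of members is thus high by construction. The other stretches described were picked and bounded in the same way. Clec2h stood at 6.80 and 5.62, Clec2i at 3.52 and 4.89 and Olr1, a scavenger receptor for oxidised lipoprotein, at 9.58 and 4.17. Gm5884 (6.44 and 6.67), 4922502D21Rik (7.11 and 7.23) and Tmem52b (5.18 and 4.72) were the other members there. In the same stretch 8 promoter regions had peaks in all lists and 2 in the K43M lists only, and the lists had between 50 and 62 peaks each. Klra1, an NK-cell lectin receptor gene farther along the chromosome, had 7.66 and 5.74.

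A stretch of 377307 bp on chromosome 7 around the beta-globin cluster held Olfr67, Hbb-bh1 and Olfr647-ps1. Hbb-bh1, an embryonic beta-like globin gene, had 7.63 and 6.39. None of the 5 promoter regions there had a peak in all 4 lists, but 3 of them are members and hold no K43M peak by the rule. Reads with several positions had been removed by the authors, and the part of this step or of sequence differences between the lines in the missing K43M peaks of the zinc finger, lectin receptor and globin stretches was not tested. The erythroid markers Gata1, Klf1, Hbb-b1 and Epor had no promoter peak in any list.

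Motif words were counted within 100 bp of each summit on both strands. The E-box word CACCTG or CAGCTG, recognised by E proteins such as E2A, was found in 117 members (41.1%, 35.5 to 46.8), against 22.2% of regions in all lists, 27.7% of K43M-only regions and 25.2% of all promoter regions. WT-only regions outside promoters held it in 43.2%. The RUNX word TGTGGTT stood at 9.82% in members against 4.70% of all promoter regions, and the PU.1 word GAGGAAGT at 7.02% against 4.14%. Words of CpG-rich promoters were less frequent. SP1 (GGGCGGG) was found in 11.6% of members against 34.9% of all promoter regions, ETS (CCGGAAGT) in 0.351% against 5.50% and NRF-1, searched with at most 1 mismatch, in 1.75% against 7.90%. The PU.1 and ETS words end in the same bases but cannot match the same site.

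Base composition differed between these classes, so the shares were also taken in regions of 45 to 55% G and C. In this band the E-box word was in 42.2% of 166 members (34.9 to 49.8), 28.1% of 335 K43M-only regions (23.5 to 33.1) and 26.6% of 2685 regions in all lists (24.9 to 28.3). The interval of the members does not overlap the other intervals. The RUNX word stood at 9.04% in members against 9.55% in K43M-only regions and 6.33% in regions of all lists, and PU.1 at 6.63% against 4.18% and 6.22%, with overlapping intervals for both words. SP1 stood at 7.83% in members and 8.36% in K43M-only regions, both below the 22.7% of regions in all lists. Of the remaining words, NFY (CCAATCA or CCAATGA) was in 6.67% of all members, EBF1 (CCCNNGGGA) in 6.67%, MYC (CACGTG) in 7.72%, AP-1 (TGACTCA or TGAGTCA) in 5.26%, STAT (TTCNNNGAA) in 4.21% and CTCF in 2.81%. Over all promoter regions these words stood at 11.2%, 8.33%, 6.96%, 3.41%, 4.81% and 1.94% in the same order. In the band of G and C the MYC word was in 10.8% of members (6.97 to 16.5) and 4.48% of K43M-only regions (2.73 to 7.26). It was in 7.52% of regions in all lists (6.59 to 8.58), and the interval of the members overlapped the other intervals. The EBF1 word was in 13.1% of K43M-only regions (11 to 15.6), above the interval of the members (4.31 to 10.2), and in the band of G and C it stood at 6.02% in members (3.30 to 10.7) and 13.4% in K43M-only regions (10.2 to 17.5). A word match is a description of the sequence and does not show that a factor was bound.

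**Figure D5:**
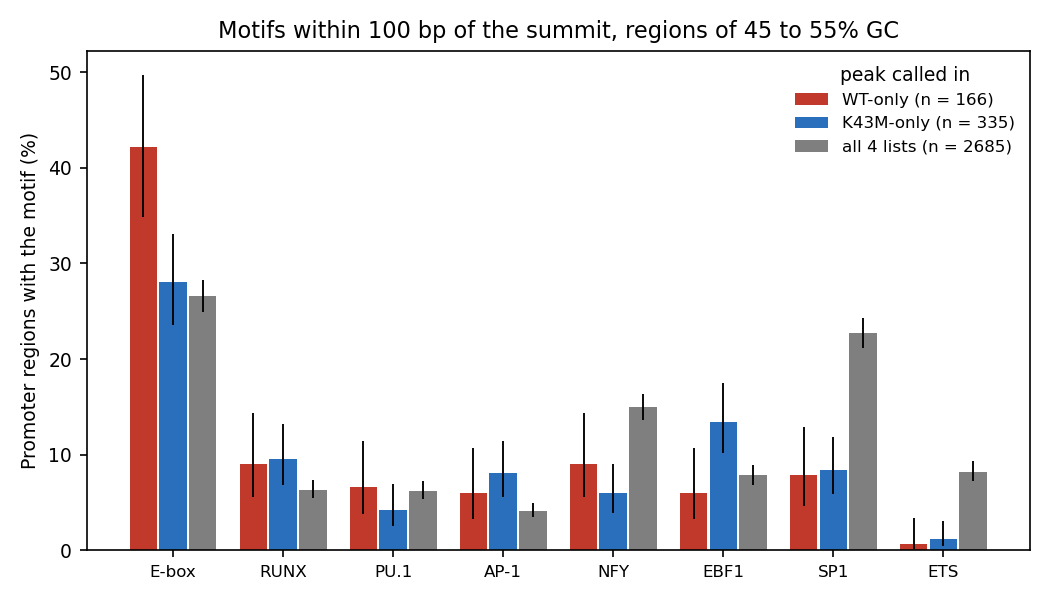
Share of promoter regions (%, y axis) with each motif word within 100 bp of the summit, limited to regions of 45 to 55% G and C, for WT-only, K43M-only and all-list promoter regions. Bars start at 0 and error bars are 95% Wilson intervals; the E-box word stands at 42.2%, 28.1% and 26.6%.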

How the data were processed

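ATAC-seq of 4 mouse BCR-ABLp185 pre/pro-B-cell lines had been deposited as 4 lists of MACS2 peaks. Per the submitters' notes and the study's methods, the authors trimmed reads with Trimmomatic (0.36), mapped them to mm10 with bwa-mem (0.7.15), removed blacklisted regions, multiply mapping and low-quality reads with bedtools and SAMtools (1.3.1), and called peaks in each library with MACS2 (2.1.0), with no control named. The deposited fold enrichment is the authors' ratio of summit signal to local background of the same library. The deposited −log10 p and −log10 q are the authors' values within a library and were used here to rank peaks. Reads were not analysed here, and summit pileups were recovered from fold and −log10 p (100% of peaks, tolerance 0.01). Depth in total reads is unknown.

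Sample labels gave the group of 3 libraries, and the list without a sample was placed with WT from the series' design text. Overlapping peaks (1 bp minimum) of all 4 lists were merged together, whereas the study's methods merged those of replicates and dropped peaks of 1 replicate only. Promoter windows used GENCODE mouse release M21. Each region was assigned to the transcription start nearest its summit. Sequences came from RefSeq's GRCm38 assembly and product names from RefSeq. C2H2 patterns were counted in 3 forward reading frames of protein-coding transcripts. Scripts used Python 3.11.15, pandas 2.3.3, scipy 1.17.1, pysam 0.24.0 and Biopython 1.88, and were tested on simulated data. Shares carry 95% Wilson intervals, which cover counting error only, and no test was run because peak presence chose the members.

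The members, the gene lists (zinc finger, chemosensory receptor, immune segment, respiratory chain, mitochondrial ribosome, carrier, channel, G protein-coupled receptor, cytokine, GTPase regulator, cell cycle, transcription factor, small RNA, histone, protease and metabolic enzyme genes) and the markers were chosen with earlier results of these data known. Genes named are the 25 best-ranked members by the weaker WT peak, members of these lists, the 20 best-ranked protein-coding members without a K43M promoter peak, the 3 lowest members and the 3 regions nearest to membership. Names outside this rule (the immune and lectin genes, Hbb-bh1, Klra1 and the copies of the shared word) were chosen after their values were seen.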

Additional observations from a re-analysis of the deposited data

How the results depend on the processing

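The number of WT-only promoter regions was 158 with protein-coding transcripts only and 716 without WT unnumbered, and between 394 and 728 when WT replicate 2 or either K43M library was left out. It lay between 192 and 364 under the other alternatives, within 1.5 times the main count. The protein-coding share moved to 60.4% with transcripts tagged basic and is 100% by construction with protein-coding transcripts only, and lay between 69.6% and 70.1% in the leave-out settings of numbered libraries. The CpG-rich share moved to 16.1% with a window of 500 bp either way and 17.1% with protein-coding transcripts only, and lay between 11.4% and 14.7% in those leave-out settings. The share of members whose nearest gene had another K43M promoter peak moved to 35.2% when peaks up to 200 bp apart were merged, 24.9% without K43M peaks within 1000 bp, 32.3% with 500 bp either way, 35.0% with 1000 bp upstream and 33.9% with basic transcripts, and lay between 46.4% and 50.5% in those leave-out settings. The repeat share moved to 2.60% with 500 bp either way, 2.53% with protein-coding transcripts only and 9.12% within 50 bp of the summit, and lay between 4.89% and 5.84% in those leave-out settings. Within 50 bp the share with at least 1 motif fell from 72.3% to 51.9%, and the E-box share stood at 24.9% in members, 15.2% in K43M-only and 13.4% in all promoter regions, an alternative chosen after seeing the data, as was the band of G and C. The CpG-rich share was below 35.9%, the value of K43M-only regions under the main rule, in each setting run. The causes of these moves were not tested. The labels pair no WT line with a K43M line, so no paired analysis was possible, and no test was run. Total read depth is unknown, so a missing K43M peak cannot be told apart from too few reads.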
